A study of Homo sapiens with 16 samples.

Results

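FXYD proteins and the beta subunits of the sodium-potassium ATPase were examined as a group of 5 genes, FXYD2, FXYD3, FXYD5, ATP1B1 and ATP1B3, chosen by name. Of these, 4 were measured among the 18227 genes of the deposited tables, and FXYD3 was not analysed here. RNA sequencing covered 16 libraries of A549 and H2023, established human lung adenocarcinoma lines, in 8 groups of 2 libraries. Each line was either wild type or a knockout of ZC3H12A, which encodes the RNase Regnase-1. Cells were harvested after 3 days of normal culture or after 7 days under conditions that enrich stem cells (oncosphere culture), so the kind of culture and its length change together. The groups of A549 were wild type and knockout in normal culture and wild type and knockout in oncosphere culture, and H2023 had the same 4 groups. The titles of the knockout libraries name 1 clone per line, so that a difference from wild type cannot be told apart from other traits of that clone. No label says that the 2 libraries of a group came from separate cultures, and p-values therefore measure only the spread between these libraries, which may be technical.

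The members were selected on knowledge of these data, with the comparisons of knockout and wild type in view. Their values in those comparisons are therefore given as a description, with no test. The comparisons of the 2 cultures and of the 2 lines were tested, although all of their libraries also entered the comparisons of knockout and wild type. Their p-values are therefore not independent of the choice of members.

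The sodium-potassium ATPase exports sodium and imports potassium across the plasma membrane. Its alpha subunit carries out the transport and the ATP hydrolysis, and its beta subunit is a glycoprotein needed for folding and for delivery to the membrane. Proteins of the FXYD family cross the membrane once, bind the pump and tune its affinity for ions in a tissue-specific way. In the alveolar epithelium the pump lies on the basolateral side and, together with apical sodium channels, drives the removal of fluid from the airspace.

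The FXYD family is named after a short motif of phenylalanine, any residue, tyrosine and aspartate beside the membrane span. FXYD2 and FXYD5 share this motif, though their levels behaved differently. The coding stretches around it are shown for FXYD2, FXYD5 and FXYD6, the 3 family members with a value in the tables. They run 5′ to 3′ on the coding strand, from GENCODE v29 transcripts (GRCh38), and the 4 motif codons are in capitals with 24 bases on each side.
FXYD2: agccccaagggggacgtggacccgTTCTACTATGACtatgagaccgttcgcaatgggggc
FXYD5: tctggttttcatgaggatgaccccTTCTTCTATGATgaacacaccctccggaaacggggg
FXYD6: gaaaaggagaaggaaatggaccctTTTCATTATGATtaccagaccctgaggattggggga
Over these 60 bases FXYD2 and FXYD6 were identical at 36 positions (60%), FXYD2 and FXYD5 at 32 (53.3%) and FXYD5 and FXYD6 at 31 (51.7%). In FXYD5 the motif starts at codon 135 of 178 in the transcript FXYD5-201. In FXYD2-201 it starts at codon 17 of 64. FXYD5 thus carries a much longer stretch before the motif.

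The annotation lists FXYD2 forms that differ at the start of the coding sequence. The forms FXYD2-201, with 64 codons, and FXYD2-202, with 66 codons, are shown from the start codon to the motif, which is in capitals.
FXYD2-201: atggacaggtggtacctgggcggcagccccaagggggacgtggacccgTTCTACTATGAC
FXYD2-202: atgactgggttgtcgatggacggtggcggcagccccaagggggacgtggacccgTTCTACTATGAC
The tables give 1 value per gene, and which form the A549 or H2023 libraries held was not tested. FXYD2 (ENSG00000137731) lies on the minus strand of chromosome 11 at 117800844 to 117828698 in GRCh38. The annotated read-through gene FXYD6-FXYD2, at 117820163 to 117876667 on the same strand, shares exons with FXYD2, so reads could have been split between them in the authors' quantification and the level of FXYD2 is uncertain to that extent. FXYD5 (ENSG00000089327) lies on the plus strand of chromosome 19 at 35154730 to 35169883. ATP1B1 (ENSG00000143153) lies on the plus strand of chromosome 1 at 169105697 to 169132722, and ATP1B3 (ENSG00000069849) on the plus strand of chromosome 3 at 141876124 to 141926514.

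Values are in TPM, a transcript abundance that scales each gene by its length and each library to a fixed total. A library summed to between 991838 and 998125 TPM, and 13824 to 14508 genes reached 1 TPM. TPM does not retain the sequencing depth, which is unknown. ZC3H12A mRNA was lower in the labelled-knockout libraries in A549 normal culture only (16.9 and 19.9 TPM, against 30.7 and 34.9 TPM for wild type). In the other 3 comparisons both labelled-knockout libraries lay above both wild-type libraries, for example 94.6 and 69.2 against 32.5 and 26.4 TPM in H2023 oncosphere culture. A level of mRNA does not show whether a gene was edited or its protein lost, and neither was tested here. Each library is therefore called by its label, and every genotype difference is labelled knockout minus wild type. All 5 listed epithelial markers were measured, and the keratins KRT8 and KRT18 stood at 666 TPM or more in every library. CDH1 ranged from 12.7 to 84.5 TPM. KRT19 ranged from 0.29 to 101 TPM in A549 and from 126 to 798 TPM in H2023, and EPCAM from 0.37 to 9.40 TPM in A549 and from 11.8 to 51.0 TPM in H2023. NAPSA, 1 of 4 listed markers of alveolar type 2 cells and the only one measured, was at 1.02 to 6.03 TPM. Of the markers of other cell types, PECAM1 of endothelium reached 2.76 TPM, COL1A1 of fibroblasts 8.46 TPM and CD14, 1 of 3 listed leukocyte markers and the only one measured, 47.6 TPM in A549. Their part in the results was not tested. In bulk RNA, fewer cells of a type and less RNA per cell cannot be told apart.

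FXYD2, the gamma subunit of the pump, best known from kidney tubules, was the member with the widest range. In wild-type A549 cells it was at 509.5 and 429 TPM in normal culture and at 1448 and 1179.6 TPM in oncosphere culture. In the A549 labelled-knockout libraries it was at 0.02 and 0.69 TPM in normal culture and at 16.6 and 5.77 TPM in oncosphere culture. The groups did not overlap in either culture, and the wild-type A549 cells held by far the highest levels of the series. In normal culture the wild-type mean of 469 ± 57.2 TPM (SD, n = 2) compared with 0.355 ± 0.474 TPM (SD, n = 2) under the knockout label.

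In H2023 the order was the opposite at far lower levels. FXYD2 was at 0.52 and 4.50 TPM in wild type and at 6.45 and 6.03 TPM in the labelled-knockout libraries in normal culture. In oncosphere culture the values were 4.77 and 37.6 TPM in wild type and 86.5 and 57.5 TPM in the labelled-knockout libraries. Both labelled-knockout libraries lay above both wild-type libraries in each culture, while the wild-type replicates differed among themselves several-fold.

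On the scale of log2(TPM + 1), the difference of labelled knockout minus wild type for FXYD2 was -8.48 (SE 0.26) in A549 normal culture and -6.90 (SE 0.44) in A549 oncosphere culture. In H2023 it was 1.32 (SE 0.67) and 2.26 (SE 1.00). The size in A549 normal culture depends on the pseudocount, because the lower group is near 0, and a pseudocount of 0.1 gave -10.57. The H2023 values rest heavily on single wild-type libraries. The difference was 0.40 without wild-type replicate 1 and 2.25 without wild-type replicate 2 in normal culture. In oncosphere culture it was 0.89 without wild-type replicate 1 and 3.63 without wild-type replicate 2.

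**Figure D1:**
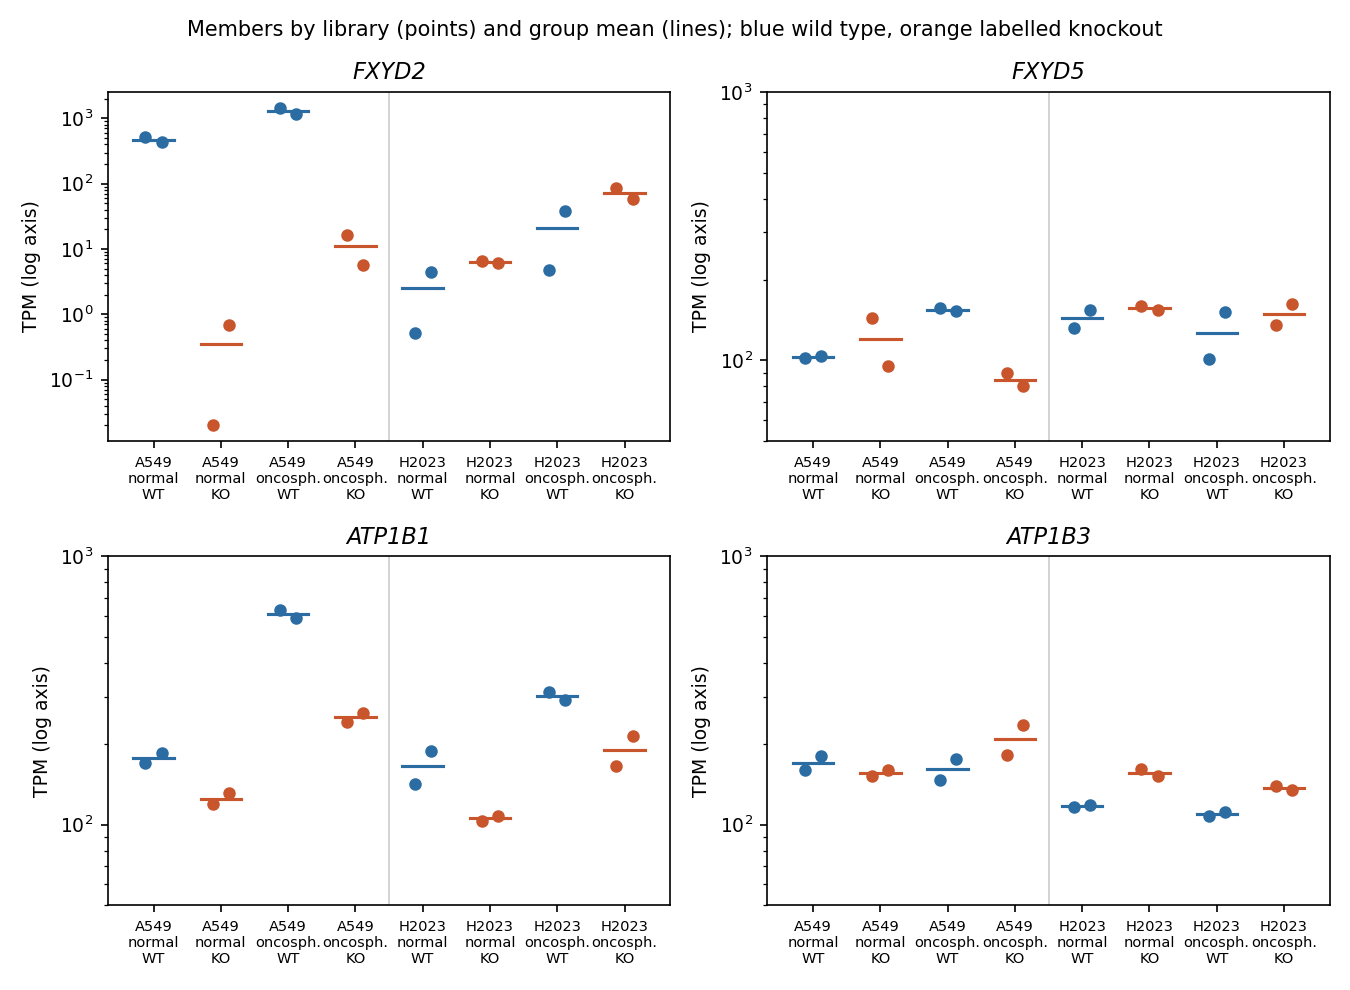
TPM of the 4 measured members on a log axis, by line, culture and genotype. Each point is 1 library and each line is the mean of 2 libraries; FXYD2 has its own axis range and the other 3 panels share one. FXYD2 spans 0.02 to 1448 TPM, while FXYD5 stays between 80.0 and 162 TPM.

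FXYD5, also called dysadherin, a glycoprotein that binds the pump and is linked to weaker contact between epithelial cells, was present at similar levels throughout. It was at 102 and 104 TPM in wild-type A549 cells and at 144 and 95.6 TPM in the labelled-knockout libraries in normal culture, which overlapped. After oncosphere culture of A549 it was at 156 and 152 TPM in wild type and at 89.4 and 80.03 TPM in the labelled-knockout libraries, with no overlap. In H2023 the values were 133 and 154 against 159.5 and 154.5 TPM in normal culture and 101 and 152 against 136 and 162 TPM in oncosphere culture, wild type first. The H2023 groups all but touched in normal culture and overlapped in oncosphere culture.

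The FXYD5 difference of labelled knockout minus wild type on the log2(TPM + 1) scale was -0.86 (SE 0.10) in A549 oncosphere culture. It was 0.19 (SE 0.20), 0.13 (SE 0.10) and 0.26 (SE 0.24) in A549 normal, H2023 normal and H2023 oncosphere culture. Each of these 3 rested on single libraries. The A549 normal value was -0.10 without labelled knockout replicate 1 and 0.48 without labelled knockout replicate 2. The H2023 normal value was 0.03 without wild-type replicate 1 and 0.24 without wild-type replicate 2, and the H2023 oncosphere value was -0.03 and 0.55 without the same replicates. Without labelled knockout replicate 2 the H2023 oncosphere value was 0.13. In order of group means, FXYD5 ran from 157 TPM in H2023 labelled knockout, normal culture, to 84.7 TPM in A549 labelled knockout, oncosphere culture. Each of the first 6 groups in that order overlapped the range of the next one, and the seventh, wild-type A549 in normal culture, stood above the last.

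ATP1B1, the beta subunit most common in epithelia, was lower in the labelled-knockout libraries in all 4 comparisons. In A549 normal culture it was at 170.2 and 185 TPM in wild type and at 119 and 131 TPM in the labelled-knockout libraries. In A549 oncosphere culture it was at 631 and 589.7 TPM in wild type and at 241 and 261 TPM in the labelled-knockout libraries. Neither pair of groups overlapped, and the wild-type oncosphere A549 group had the highest ATP1B1 of the 8 groups.

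In H2023 ATP1B1 was at 141 and 188 TPM in wild type and at 104 and 107 TPM in the labelled-knockout libraries in normal culture. In H2023 oncosphere culture it was at 312 and 292 TPM in wild type and at 166 and 214 TPM in the labelled-knockout libraries. Again no library labelled knockout reached a wild-type library of its culture. The log2(TPM + 1) differences of labelled knockout minus wild type were -0.50 (SE 0.10), -1.28 (SE 0.10), -0.63 (SE 0.16) and -0.68 (SE 0.16) in A549 normal, A549 oncosphere, H2023 normal and H2023 oncosphere culture. The H2023 value in normal culture was -0.42 without wild-type replicate 2.

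ATP1B3, a beta subunit of wider tissue distribution, went the other way in 3 of the 4 comparisons. After oncosphere culture of A549 it was at 146 and 175 TPM in wild type and at 182 and 235 TPM in the labelled-knockout libraries. In H2023 it was at 116 and 118 against 160.5 and 152 TPM in normal culture and at 107 and 112 against 139 and 135 TPM in oncosphere culture, wild type first. In these 3 comparisons both labelled-knockout libraries lay above both wild-type libraries.

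In A549 normal culture ATP1B3 was at 159 and 179.8 TPM in wild type and at 152 and 159 TPM in the labelled-knockout libraries, which were lower by a margin of under 1 TPM. The log2(TPM + 1) differences of labelled knockout minus wild type were -0.12 (SE 0.10), 0.37 (SE 0.16), 0.41 (SE 0.07) and 0.32 (SE 0.08), in the order used for ATP1B1. Without labelled knockout replicate 2 the A549 oncosphere value was 0.19, and without wild-type replicate 1 it was 0.24. The A549 normal value was -0.21 without wild-type replicate 1 and -0.04 without wild-type replicate 2.

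**Figure D2:**
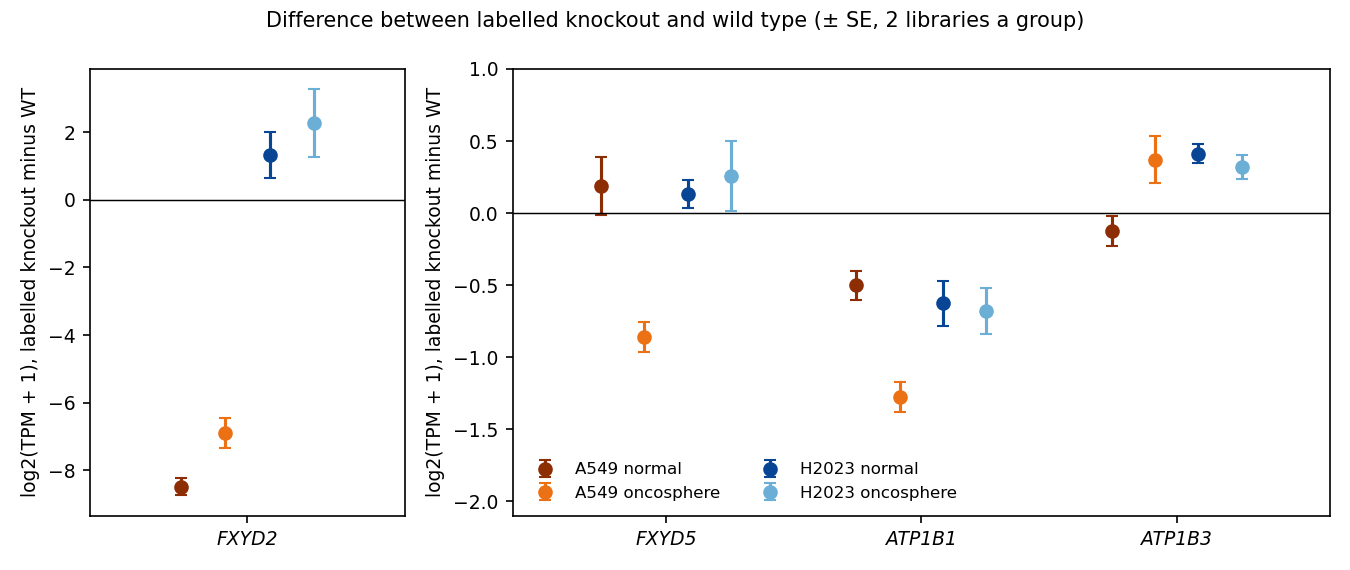
Differences of labelled knockout minus wild type on the log2(TPM + 1) scale for each member and comparison, with FXYD2 on an axis of its own. Points are differences of the means of 2 libraries and bars are ± SE. ATP1B1 lies below 0 in all 4 comparisons, between -1.28 and -0.50, and ATP1B3 above 0 in 3.

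As a background for these descriptions, limma called 10.8% of all genes in A549 normal culture, 13.2% in A549 oncosphere culture, 0% in either culture of H2023 at an adjusted p under 0.05. In H2023, 3314 and 2828 genes passed 0.05 before adjustment in the same test. In the authors' deposited tables the shares with an adjusted p under 0.05 were 22.1%, 20.7%, 10.8% and 5.07%, in the same order. Since the members were chosen with these comparisons known, nothing is read from where they fall against these shares.

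Because TPM is scaled by gene length, the levels of the 2 beta subunits can be set side by side within a library. ATP1B1 made up 51.2% of the summed ATP1B1 and ATP1B3 TPM in wild-type A549 cells in normal culture (50.7% and 51.6%) and 44.6% in the labelled-knockout libraries (44.0% and 45.1%). In A549 oncosphere culture the mean share was 79.1% in wild type (77.1% and 81.2%) and 54.7% in the labelled-knockout libraries (52.6% and 56.9%). H2023 gave 58.2% against 40.3% in normal culture and 73.4% against 57.8% in oncosphere culture. The ATP1B1 share was lower in both labelled-knockout libraries than in both wild-type libraries in each of the 4 comparisons.

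FXYD2 made up 81.9% of the summed FXYD2 and FXYD5 TPM in wild-type A549 cells in normal culture and 89.4% in oncosphere culture. In the A549 labelled-knockout libraries its mean share was 0.365% and 11.2%. In H2023 the mean share was 1.61% in wild type and 3.82% in the labelled-knockout libraries in normal culture, and 12.2% and 32.5% in oncosphere culture. FXYD2 was therefore the more abundant of the pair in TPM only in the 2 wild-type A549 groups.

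**Figure D3:**
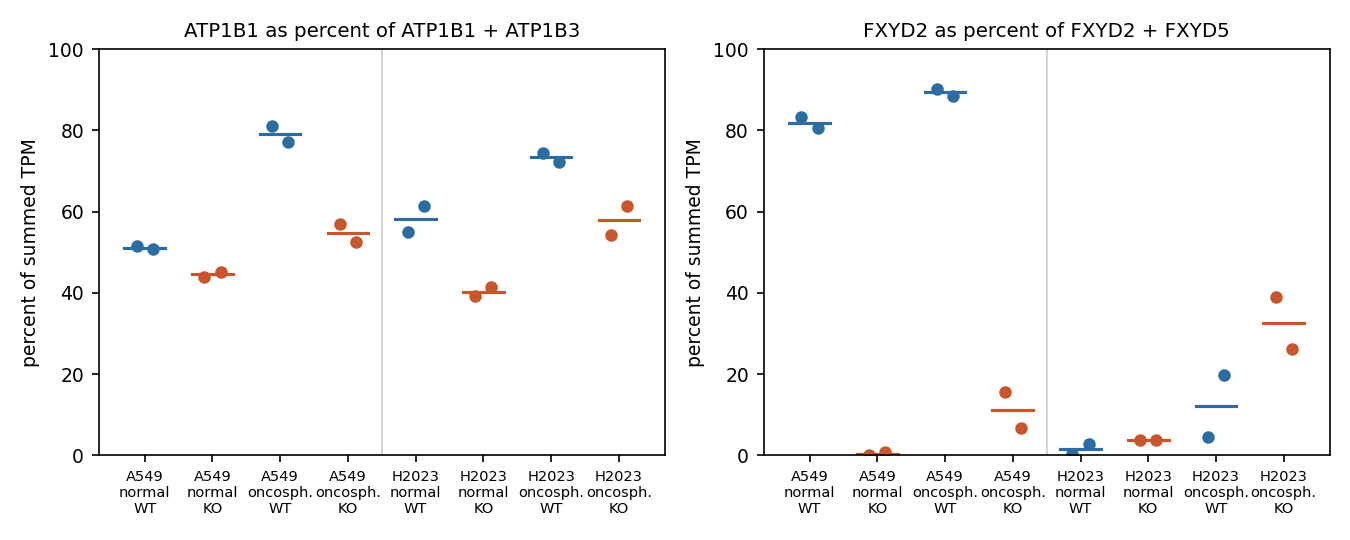
Share of ATP1B1 in the summed TPM of ATP1B1 and ATP1B3 (left) and share of FXYD2 in the summed TPM of FXYD2 and FXYD5 (right), in percent. Points are libraries and lines are means of 2 libraries. The ATP1B1 share is lower in the labelled-knockout libraries in each line and culture, and FXYD2 exceeds 80% only in wild-type A549 cells.

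The change from normal to oncosphere culture was tested within each line and genotype with limma on log2(TPM + 1) over the 8 libraries of the line, with adjustment over all 18227 genes. In wild-type A549 cells 3 of the 4 measured members rose and none fell, against 40.6% of all genes called. In the A549 labelled-knockout libraries 2 rose, against 20.8% of all genes. In H2023 1 rose in wild type, against 21.4% of all genes, and 2 rose in the labelled-knockout libraries, against 26.9%. With so few members these counts are not separated from the background.

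ATP1B1 rose with the oncosphere culture in all 4 of these comparisons. In A549 the log2 change was 1.78 (SE 0.10, 95% interval 1.54 to 2.01, limma adjusted p = 4.35e-05) in wild type and 1.00 (SE 0.10, 0.77 to 1.23, limma adjusted p = 6.58e-04) in the labelled-knockout libraries. In H2023 it was 0.88 (SE 0.17, 0.47 to 1.29, limma adjusted p = 0.0161) in wild type and 0.83 (SE 0.17, 0.42 to 1.24, limma adjusted p = 0.0151) in the labelled-knockout libraries. The A549 calls held when any 1 library was left out. The H2023 wild-type call was lost without normal-culture replicate 1 or either oncosphere replicate (limma adjusted p = 0.0693, 0.0644 and 0.0564). The H2023 call in the labelled-knockout libraries was lost without either normal-culture replicate or oncosphere replicate 2 (limma adjusted p = 0.0873, 0.0730 and 0.0724).

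FXYD2 rose by 1.48 in wild-type A549 cells (SE 0.41, 95% interval 0.53 to 2.43, limma adjusted p = 0.0215) and by 3.06 in the A549 labelled-knockout libraries (SE 0.41, 2.11 to 4.003, limma adjusted p = 0.00192), on the log2(TPM + 1) scale. The SE is pooled over the 8 libraries of the line. The spread between labelled-knockout libraries, some of them near 0 TPM, therefore enters the wild-type test and its dependence on the pseudocount. The wild-type call was lost when any 1 of its 4 libraries was left out (limma adjusted p from 0.0571 to 0.106) and with a pseudocount of 0.1 (limma adjusted p = 0.165). In the H2023 labelled-knockout libraries FXYD2 rose by 3.31 (SE 0.95, 1.03 to 5.58, limma adjusted p = 0.0450). That call was lost with a pseudocount of 0.1 (limma adjusted p = 0.0759) and without any 1 of the 4 libraries (limma adjusted p from 0.121 to 0.161). In wild-type H2023 cells the change of 2.37 (SE 0.95, 0.09 to 4.65) was not called (limma adjusted p = 0.125). It was called without oncosphere wild-type replicate 1 (3.74, limma adjusted p = 0.0332).

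FXYD5 rose by 0.58 in wild-type A549 cells (SE 0.17, 95% interval 0.18 to 0.98, limma adjusted p = 0.0280), a call lost when any 1 of its 4 libraries was left out (limma adjusted p from 0.0836 to 0.111). Its change was -0.47 (SE 0.17, -0.87 to -0.07, limma adjusted p = 0.0945) in the A549 labelled-knockout libraries. That value became -0.76 and was called without normal-culture replicate 2 (limma adjusted p = 0.0113). In H2023 the changes were -0.20 (-0.68 to 0.28) and -0.08 (-0.56 to 0.40), wild type first, and neither was called (limma adjusted p = 0.508 and 0.808).

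ATP1B3 was not called in any of the 4 culture comparisons. Its log2 changes were -0.08 (95% interval -0.42 to 0.26, limma adjusted p = 0.697) in wild-type A549 cells and 0.41 (0.08 to 0.75, limma adjusted p = 0.0842) in the A549 labelled-knockout libraries. With the replicate number as a block the second of these was called (limma adjusted p = 0.0273), and it was called without oncosphere replicate 1 (0.60, limma adjusted p = 0.0494). In H2023 the changes were -0.10 (-0.27 to 0.08, limma adjusted p = 0.394) and -0.19 (-0.36 to -0.01, limma adjusted p = 0.109), wild type first.

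The share of TPM from mitochondrially encoded genes was 10.3% to 18.7% in normal culture and 19.5% to 25.6% in oncosphere culture. The median log2 change of all genes between cultures was -0.18 in wild-type H2023 cells and -0.12 in the H2023 labelled-knockout libraries. Rescaling without the mitochondrial genes moved those medians by 0.17 and 0.14. Relative to its median, the ATP1B1 change in H2023 was 1.07 in wild type and 0.95 in the labelled-knockout libraries, and both were called. The uncalled negative changes of ATP1B3 in H2023 and in wild-type A549 cells, and of FXYD5 in H2023, turned positive after that rescaling, so no direction is given for them.

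**Figure D4:**
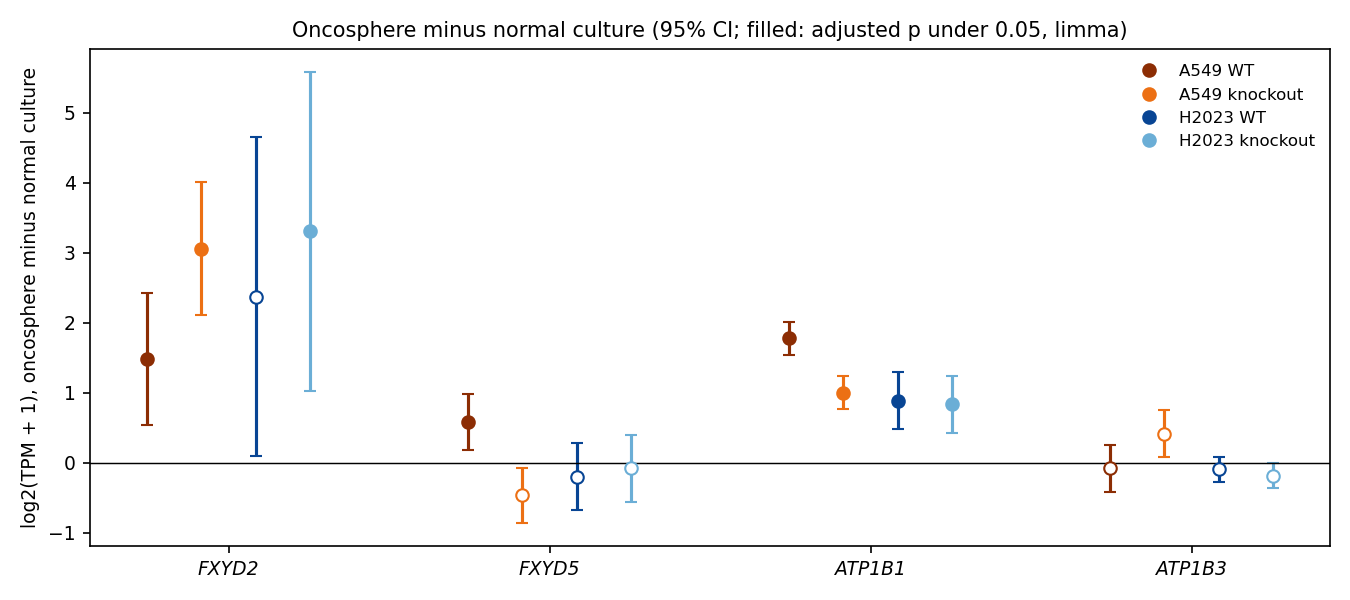
Change from normal to oncosphere culture on the log2(TPM + 1) scale for the 4 measured members. Points are limma estimates with 95% intervals, filled where the adjusted p is under 0.05. ATP1B1 is filled in all 4 comparisons, from 0.83 to 1.78, and ATP1B3 in none.

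Wild-type H2023 and A549 cells were compared in each culture with limma over the 8 wild-type libraries. Of the 4 measured members 2 were lower in H2023 in normal culture, against 35.4% of all genes called, and 3 were lower in oncosphere culture, against 42.3%. FXYD2 was lower in H2023, with a log2 difference of -7.34 in normal culture (SE 0.86, 95% interval -9.33 to -5.35, limma adjusted p = 8.74e-04). In oncosphere culture its log2 difference was -6.45 (SE 0.86, -8.45 to -4.46, limma adjusted p = 0.00108). Both calls held without any 1 library.

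The log2 difference of ATP1B3 between H2023 and A549 was -0.53 (SE 0.12, 95% interval -0.81 to -0.25, limma adjusted p = 0.0121) in normal culture and -0.54 (SE 0.12, -0.82 to -0.27, limma adjusted p = 0.00898) in oncosphere culture. The first was lost without A549 replicate 2 or either H2023 replicate (limma adjusted p = 0.0764, 0.0613 and 0.0530), and the second without A549 replicate 2 (limma adjusted p = 0.0509). ATP1B1 was lower in H2023 in oncosphere culture (-1.01, SE 0.15, -1.35 to -0.67, limma adjusted p = 0.00145). In normal culture its difference of -0.12 (-0.46 to 0.22) was not called (limma adjusted p = 0.558) and became 0.08 without H2023 replicate 1. FXYD5 was not called in either culture, with 0.47 (0.05 to 0.89, limma adjusted p = 0.0791) in normal and -0.31 (-0.73 to 0.11, limma adjusted p = 0.202) in oncosphere culture. Without H2023 replicate 2 the second value was -0.60 and was called (limma adjusted p = 0.0142).

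FXYD6, a family member best known from the nervous system, neighbours FXYD2 on chromosome 11. The annotated span of the read-through gene FXYD6-FXYD2 overlaps that of FXYD6 on the same strand. Some reads could be assigned to either, so the low level of FXYD6 is uncertain to that extent. In A549 it was at 1.29 and 1.38 TPM in wild type and at 0 and 0.05 TPM in the labelled-knockout libraries in normal culture, and at 2.00 and 3.48 against 0.08 and 0 TPM in oncosphere culture. Limma called it lower in both, with log2(TPM + 1) differences of -1.19 (SE 0.12, adjusted p = 0.0112) and -1.82 (SE 0.23, adjusted p = 0.0108). Both calls were lost when any 1 library was left out, but so were nearly all calls over all genes. A group is then left with 1 library, so the loss is not particular to FXYD6. In H2023 no library exceeded 0.26 TPM.

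The order of genes around FXYD2 was examined because FXYD6 and FXYD2 are neighbours, and the window was set after the values were seen. DSCAML1, the nearest measured gene on one side and a neural adhesion molecule, was at 0.98 and 1.36 TPM in wild type and at 0.01 and 0 TPM in the labelled-knockout libraries in A549 normal culture (limma adjusted p = 0.0153). In A549 oncosphere culture it was at 2.20 and 2.01 against 0.16 and 0 TPM (limma adjusted p = 0.00636). The annotated span of DSCAML1 overlaps that of FXYD2 on the same strand, so some of its reads could be assigned to either. The antisense RNA AP000757.2, whose span overlaps FXYD2, was at 3.10 and 3.20 TPM in wild type and 0.34 and 0 TPM in the labelled-knockout libraries in A549 oncosphere culture, with no overlap between the groups.

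Of the 10 measured genes before FXYD2, 1 was called in each A549 culture, and of the 11 after it, 1 was called in normal and 3 in oncosphere culture. Of all genes, 10.8% and 13.2% were called in these comparisons, and nothing is read from a count in a window set after the values were seen. The genes called were DSCAML1 and FXYD6 in both cultures, and the antisense RNAs AP000757.2 and AP000757.1 in oncosphere culture. CEP164, the next measured gene beyond DSCAML1, overlapped between groups in both A549 cultures (14.1 and 15.4 against 14.4 and 19.2 TPM in normal culture). IL10RA, the next measured gene beyond FXYD6 and a cytokine receptor, was at 1.67 and 0.48 against 0.20 and 0.05 TPM in A549 oncosphere culture and was not called (-0.82, SE 0.29, limma adjusted p = 0.134). MPZL3, the next measured gene after IL10RA, was at 2.23 and 1.44 against 0.73 and 0.82 TPM there and was not called either (-0.66, SE 0.20, limma adjusted p = 0.0918). In A549 normal culture IL10RA overlapped between groups, and MPZL3 was at 0.30 and 0.55 against 0.29 and 0.15 TPM. In H2023 limma called none of the 21 neighbours, and 0% of all genes. LSR, a measured neighbour of FXYD5 on chromosome 19 and a gene of tricellular junctions, was at 22.5 and 22.3 TPM in wild type and 5.62 and 3.73 TPM in the labelled-knockout libraries in A549 normal culture (limma adjusted p = 0.0111). In the oncosphere culture of A549 LSR was at 64.7 and 52.1 against 7.63 and 8.60 TPM (limma adjusted p = 0.00248). The calls of DSCAML1 and LSR were lost when any 1 library was left out, as were nearly all calls over all genes in A549. That loss is therefore not particular to DSCAML1 or LSR.

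**Figure D5:**
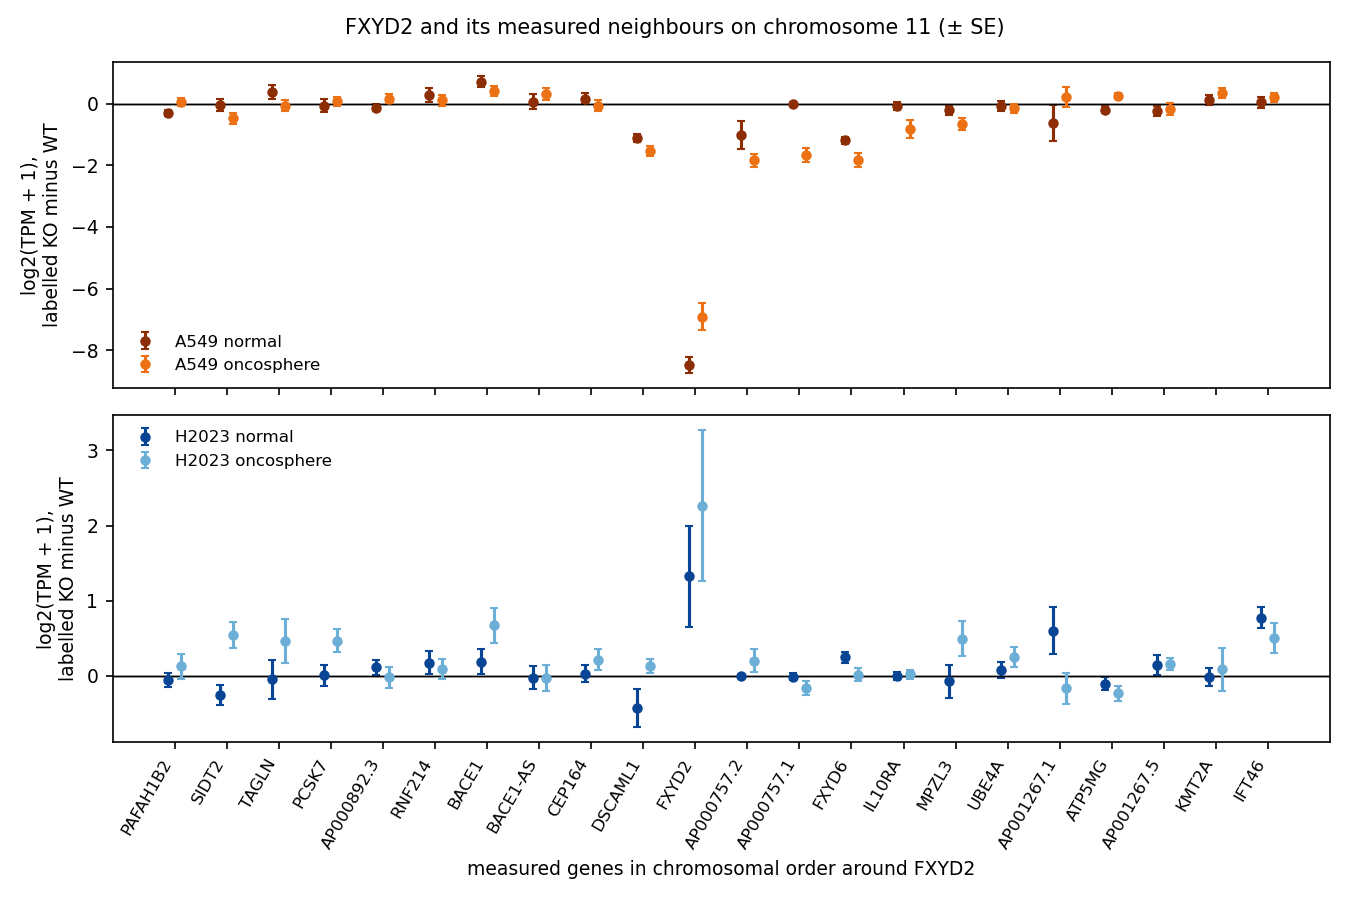
Differences of labelled knockout minus wild type on the log2(TPM + 1) scale for FXYD2 and the measured genes on either side of it, in chromosomal order and not to scale. Points are differences of means of 2 libraries, with ± SE, for A549 (top) and H2023 (bottom), whose vertical axes differ. In A549 FXYD2 is the lowest at -8.48 and -6.90, and IL10RA and MPZL3, beyond FXYD6, lie at -0.82 and -0.66 in oncosphere culture.

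A wider set of 60 genes of ion transport and its control, of which 49 were measured, was counted beside the members in each comparison of knockout and wild type. In A549 normal culture limma called 15 of the 49, 4 higher and 11 lower, and the median log2 difference was 0.05 against -0.03 over all genes. In A549 oncosphere culture it called 16, 7 higher and 9 lower, with a median of -0.15 against 0.03. The shares called were 30.6% and 32.7%, against 10.8% and 13.2% of all genes. The set was chosen with earlier results of these comparisons known, so nothing is read from that difference, and the counts of each group of genes below are descriptions. When any 1 of the 4 libraries of a comparison was left out, limma called 0 of the 49 in either A549 culture, and over all genes it called 0 in normal and 0 to 38 in oncosphere culture. In H2023 it called 0 of the 49 in both cultures, while 11 and 12 of them passed 0.05 before adjustment. The authors' deposited tables gave an adjusted p for 45 genes of the set and called 23 of them in A549 normal culture (9 higher, 14 lower) and 18 of 48 in A549 oncosphere culture (7 higher, 11 lower). There were 12 of 43 in H2023 normal (4 higher, 8 lower) and 4 of 44 in H2023 oncosphere culture (1 higher, 3 lower). Over all genes the authors' deposited tables called 22.1%, 20.7%, 10.8% and 5.07%, in the same order.

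Among transcription factors known to act on the members, limma called 4 of 10 in A549 normal culture (1 higher, 3 lower) and 5 of 10 in oncosphere culture (2 higher, 3 lower). SNAI1, a repressor of epithelial genes reported to act on ATP1B1, was at 2.12 and 2.18 TPM in wild-type A549 cells and at 8 and 16.1 TPM in the labelled-knockout libraries in normal culture (1.98, SE 0.33, limma adjusted p = 0.0288). In the authors' deposited tables its log2 fold change was 1.08 in A549 oncosphere, -1.53 in H2023 normal and -1.09 in H2023 oncosphere culture, none of them called. Its part in the levels of ATP1B1 was not tested. NR3C1, the glucocorticoid receptor, rose by 1.10 in A549 oncosphere culture (23.95 and 21.5 against 49.3 and 50.1 TPM, SE 0.11, limma adjusted p = 0.00661). NR3C2, the mineralocorticoid receptor, was at 1.39 and 1.35 against 0.03 and 0.65 TPM in H2023 oncosphere culture, where the authors' deposited table called it lower. The authors' deposited tables also called NR3C2 lower in A549 normal, A549 oncosphere and H2023 normal culture (log2 fold changes of -2.04, -2.94 and -3.02).

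Of the genes of sodium entry, limma called 2 of 14 measured in A549 normal culture (1 higher, 1 lower) and 4 of 14 in oncosphere culture (2 higher, 2 lower). SLC12A2, the sodium-potassium-chloride cotransporter NKCC1, was at 139 and 133 TPM in wild-type A549 cells and at 36.2 and 29.5 TPM in the labelled-knockout libraries in oncosphere culture (-2.02, SE 0.13, limma adjusted p = 0.00281). SLC4A4, a sodium bicarbonate cotransporter, was at 6.11 and 7.46 against 1.81 and 1.22 TPM in H2023 normal culture and at 13.7 and 7.53 against 2.86 and 1.97 TPM in H2023 oncosphere culture. The authors' deposited tables called SLC4A4 lower in both (log2 fold changes of -2.24 and -2.26), and limma did not (adjusted p = 0.126 and 0.231). In A549 oncosphere culture limma called SLC4A4 lower (-2.66, SE 0.34, limma adjusted p = 0.0108). In A549 normal culture only the authors' deposited table called it lower (log2 fold change of -0.69). SCNN1A, the alpha subunit of the epithelial sodium channel, was at 10.1 and 4.61 against 18.5 and 19.0 TPM in H2023 oncosphere culture. There it was higher in the authors' deposited table but not called by limma (adjusted p = 0.270). In A549 oncosphere culture limma called SCNN1A higher (1.38, SE 0.20, limma adjusted p = 0.0150). Its difference was 0.52 in A549 normal culture and -0.65 in H2023 normal culture, neither called by limma. The authors' deposited tables called it higher in A549 normal culture (log2 fold change of 0.70) and did not call it in H2023 normal culture. SLC38A2, a sodium-coupled amino acid transporter, and SLC4A7, a bicarbonate transporter, were at 173 and 142 against 274 and 219 TPM and at 16.6 and 14.1 against 27.2 and 20.5 TPM in H2023 normal culture, both called higher only in the authors' deposited table.

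Of the genes of potassium and chloride exit, limma called 5 of 9 measured in A549 normal culture (2 higher, 3 lower) and 3 of 9 in oncosphere culture (1 higher, 2 lower). KCNK5, a two-pore potassium channel of epithelia, fell in normal culture (5.16 and 6.03 against 0.45 and 0.57 TPM, -2.12, SE 0.19, limma adjusted p = 0.00877) and in oncosphere culture (32.4 and 24.02 against 3.07 and 3.39 TPM, -2.77, SE 0.20, limma adjusted p = 0.00337). KCNN4, a calcium-activated potassium channel, rose in normal culture (20.6 and 19.7 against 38.2 and 35.7 TPM, 0.84, SE 0.11, limma adjusted p = 0.0164) and in oncosphere culture (49.7 and 49.9 against 113.9 and 90.6 TPM, 1.01, SE 0.14, limma adjusted p = 0.0122). KCNE3, an accessory subunit of potassium channels, was at 0.21 and 0.10 against 0.89 and 0.79 TPM in normal culture (0.67, SE 0.12, limma adjusted p = 0.0328), a call lost in the fit over the 8 libraries of the line (limma adjusted p = 0.0755). SLC12A7, a potassium-chloride cotransporter, was at 44.6 and 46.4 against 34.6 and 27.4 TPM in H2023 normal culture. It was called lower there only in the authors' deposited table. In A549 limma called SLC12A7 lower in normal culture (-0.68, SE 0.13, limma adjusted p = 0.0347) and in oncosphere culture (-1.56, SE 0.17, limma adjusted p = 0.00704).

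Of 7 kinases and ligases that control sodium transport, limma called 1 in A549 normal culture and 2 in oncosphere culture. NEDD4L, a ubiquitin ligase that removes sodium channels from the membrane, fell in A549 normal culture (37.3 and 35.3 against 13.2 and 13.3 TPM, -1.39, SE 0.11, limma adjusted p = 0.00717). It also fell in A549 oncosphere culture (-1.15, SE 0.13, limma adjusted p = 0.00848), and limma called it in neither culture of H2023. Of 5 calcium pumps 2 were called lower in normal culture and 1 higher in oncosphere culture. ATP2B4, a calcium pump of the plasma membrane, was at 8.34 and 8.72 against 18.5 and 19.7 TPM in A549 oncosphere culture (1.07, SE 0.14, limma adjusted p = 0.0114). In A549 normal culture only the authors' deposited table called ATP2B4 higher (log2 fold change of 1.06). In H2023 normal culture ATP2B4 was at 13.8 and 12.3 against 7.27 and 6.47 TPM, called lower only in the authors' deposited table. All of the limma calls in A549 of genes of these lists given above were lost when any 1 library was left out. A group is then left with 1 library, so the loss is not particular to these genes.

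Across the 16 libraries the genes whose log2(TPM + 1) values were most like those of each member, out of 10893 genes with a symbol and at least 10 TPM in 1 library, were found by Pearson correlation. These are descriptions over libraries that share lines, cultures and clones. For FXYD2 they were MAP2K3 (r = 0.95), LTB (r = 0.93) and HLA-DMB (r = 0.91). For ATP1B1 they were CIDEC (r = 0.96), PLA2G4A (r = 0.95) and FOXA1 (r = 0.95). For FXYD5 they were ZDHHC4 (r = 0.89), PXDC1 (r = 0.82) and USE1 (r = 0.82), and for ATP1B3 LHFPL2 (r = 0.91), APMAP (r = 0.89) and DCBLD2 (r = 0.89). Among the members, FXYD2 and ATP1B1 had r = 0.64, FXYD5 and ATP1B3 had r = -0.49, and ATP1B1 and ATP1B3 had r = 0.03.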

How the data were processed

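TPM values per library come from 4 tables deposited by the authors, each with the 4 libraries of a line in a culture and 18361 rows. Of these, 119 identifiers stood on several rows and the first was kept, which left 18227 genes. The deposited tables also hold a mean normalized signal per gene, a log2 fold change with its standard error, a test statistic (a score) and p-values, in columns named as DESeq2 names them, per the file headers. HISAT2, StringTie and GRCh38 are named in the submitters' processing notes, with no version. The libraries were stranded (TruSeq mRNA, 1 µg of RNA each), per the labels' protocols. The number of reads per library is unknown from TPM, so no floor can be put on a 0.

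The main test was limma (version 3.58.1, under R 4.3.3), fitted to log2(TPM + 1) with its trended prior variance, two-sided, with Benjamini-Hochberg adjustment over all genes and a threshold of 0.05, and was tested on simulated data. Fold changes on this scale understate the change of low genes. Comparisons of genotype used 4 libraries, those of culture and line used 8, and the interaction tests used 16. The members and gene lists were chosen with earlier results of these data known. Genes named are the members, other alpha, beta and FXYD genes reaching 1 TPM, per comparison up to 3 higher and 3 lower genes of the other lists with the smallest adjusted p (limma, or the authors' deposited table where limma called none), the 3 genes most like each member, the nearest neighbours and ZC3H12A. AP000757.1, AP000757.2, CEP164, IL10RA and MPZL3 were named after their values were seen, and some genes that the rule names are not reported here. Alternatives were a pseudocount of 0.1, a mean of at least 1 TPM, centring on the median, scaling without mitochondrial genes, 8 libraries of a line, a replicate block, the authors' deposited table and leaving out each library.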

Additional observations from a re-analysis of the deposited data

Results flagged for a closer look

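Some differences of labelled knockout minus wild type went in opposite directions, or differed by a limma interaction test, between lines or cultures. For the members the difference was not tested, since they were chosen with these comparisons known. FXYD2 was lower in A549 and higher in H2023, and the H2023 value exceeded the A549 value by 9.80 (normal culture) and 9.17 (oncosphere culture) on the log2(TPM + 1) scale. ATP1B3 had opposite signs in the 2 A549 cultures, 0.49 apart, and in the 2 lines in normal culture, 0.53 apart.

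Among the other genes the interaction was called at an adjusted p under 0.05 for 12.1% of all genes between lines in normal culture, 16.3% between lines in oncosphere culture, 9.71% between A549 cultures and 0.00549% between H2023 cultures. The interaction was fitted over all 16 libraries, and no alternative setting was run for it. Most of the genes below were named for a small adjusted p in the same comparisons of knockout and wild type. Their interaction p-values are therefore not independent of that choice, and nothing is read from them. Values below are H2023 minus A549. In normal culture limma called the difference for FXYD6 (1.44, adjusted p = 0.00220), KCNK5 (2.27, adjusted p = 0.00906), NEDD4L (1.22, adjusted p = 0.00192) and SLC4A7 (0.83, adjusted p = 0.0348). It was negative and called for SNAI1 (-3.18, adjusted p = 0.00536), ATP2B4 (-1.67, adjusted p = 0.00292) and KCNN4 (-1.01, adjusted p = 0.00320).

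In oncosphere culture limma called the line difference for KCNK5 (4.08, adjusted p = 1.69e-04), SLC12A2 (2.07, adjusted p = 0.00612) and FXYD6 (1.84, adjusted p = 2.70e-04). It was negative for NR3C1 (-1.25, adjusted p = 0.00147), ATP2B4 (-1.08, adjusted p = 0.0197) and KCNN4 (-0.996, adjusted p = 0.00228). Between A549 cultures, oncosphere minus normal, it called KCNE3 (-1.25, adjusted p = 0.0187) and NR3C1 (0.80, adjusted p = 0.0285). SCNN1A in H2023 had opposite directions in the 2 cultures, 1.98 apart, and was not called by limma (adjusted p = 0.271).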

How the results depend on the processing

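The FXYD2 difference in A549 normal culture was -10.57 with a pseudocount of 0.1 and -9.56 in the authors' deposited table. Of the 49 measured ion-transport genes the authors' deposited tables called 23 in A549 normal, 12 in H2023 normal and 4 in H2023 oncosphere culture, and a mean of at least 1 TPM gave 2 in H2023 normal culture. With 1 library left out, 0 to 0 of the 49 were called in either A549 culture. Members called between cultures then numbered 1 to 1 in wild-type A549, 0 to 1 in wild-type H2023 and 0 to 1 in H2023 labelled knockout, and between lines in normal culture 1 to 2. A pseudocount of 0.1 gave 1 in H2023 labelled knockout. The cause was not tested beyond the smaller number of samples.

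Culture and line values that changed sign were all uncalled. Without mitochondrial genes ATP1B3 was 0.0592 in wild-type A549, 0.147 in wild-type H2023 and 0.0352 in H2023 labelled knockout, and FXYD5 was 0.0399 and 0.143 in the 2 H2023 genotypes. Centring gave 0.0880 for ATP1B3 in wild-type and 0.0376 for FXYD5 in labelled knockout H2023. With 1 library left out the culture change ran from -0.211 to 0.0505 for ATP1B3 in wild-type A549, from -0.493 to 0.0868 for FXYD5 in wild-type H2023 and from -0.208 to 0.0486 in H2023 labelled knockout, and the ATP1B1 line difference in normal culture from -0.325 to 0.0849. Of the remaining values for single genes, 461 kept their direction and call or, where untested, moved by less than 1 SD, 73 lost a call, 70 of them when a library was left out, and 7 gained one.

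Replicate numbers are shared by all groups, but no label says that they pair libraries, and 2 pairs do not settle it (correlations of replicate differences from -0.04 to 0.55). With the replicate number as a block, limma called 15 of the 49 in A549 normal and 18 in A549 oncosphere culture, and the FXYD2 difference stayed at -8.48 in A549 normal culture. Precision is limited by 2 libraries a group.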
